A study of Mus musculus with 18 samples.

Results

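Chemokines are small secreted proteins that direct the movement of leukocytes, and 10 chemokine genes of the mouse left ventricle are described here across 3 treatments. They are Ccl2, Ccl12, Ccl7, Ccl6, Ccl9, Ccl24, Cxcl1, Cxcl12, Cxcl14 and Cx3cl1. This list of symbols was chosen with earlier results of these data known. Its genes were found by name among the 48709 genes of the deposited count table. All 10 passed the filter on low counts, which left 13281 genes for testing. The tissue was the left ventricle of wild-type male C57BL/6J mice aged 12 weeks. One group of 6 libraries came from mice that received isoproterenol, a synthetic agonist of β-adrenergic receptors, at 30 mg/kg/day from an osmotic pump together with a daily intraperitoneal injection of 50 mg/kg minocycline, a tetracycline antibiotic that also dampens inflammation. A second group of 6 received the same isoproterenol infusion alone, and the 6 control libraries came from mice given saline. Tissue was collected after 21 days. No group with minocycline alone is among the libraries used here, so each effect of minocycline was read on top of isoproterenol. The labels' protocols speak of pooled RNA, and it is not stated whether a library stands for 1 animal, so p-values measure the spread between libraries.

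Chemokines are named for the spacing of their first cysteines, as CC, CXC and CX3C ligands, and signal through G-protein-coupled receptors of matching name. In the heart, CCL2 and its relatives call in monocytes that carry CCR2, CXCL12 is made constitutively by stromal and vascular cells, and CX3CL1 is held on the endothelial surface until proteases release it. Most inflammatory chemokines are made on demand, through NF-κB and STAT factors that act at their promoters.

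The members lie on 5 chromosomes, and 5 of the 10 sit in 2 CC gene clusters of chromosome 11 (coordinates of the deposited table, identical to GENCODE M21 on GRCm38 for all members except Cxcl14). Ccl2 (82035571 to 82037453), Ccl7 (82045712 to 82047525) and Ccl12 (82101845 to 82103400) share the plus strand within 67830 bases. Ccl9 (83572919 to 83578636) and Ccl6 (83587882 to 83593087) share the minus strand within 20169 bases. Cxcl1 (90891241 to 90893115) and Ccl24 (135569937 to 135573049) are on chromosome 5, Cxcl12 (117168535 to 117181367) on chromosome 6, Cx3cl1 (94772009 to 94782427) on chromosome 8 and Cxcl14 (56288647 to 56296551) on chromosome 13. No member shares exon bases with a gene that holds at least 20% as many counts. Of 50-base windows of the annotated transcripts, 0% recurred in another gene for 9 members, and 1.97% did for Ccl9.

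The promoters of 7 members were in the RefSeq table (GRCm38.p6). The 80 bases before the deposited start are printed for 4 members that rose in at least 1 of the comparisons below. In each, these bases hold a searched motif or the longest run that any pair of the 7 shared. Capitals mark GGGAATTTCC in Cxcl1, TATAAA in Ccl12, and the 13-base run GCCCTCCACTTCC common to the neighbours Ccl6 and Ccl9.
Cxcl1, chr5:90891161-90891240, plus strand: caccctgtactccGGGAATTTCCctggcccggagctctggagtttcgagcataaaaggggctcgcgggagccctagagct
Ccl12, chr11:82101765-82101844, plus strand: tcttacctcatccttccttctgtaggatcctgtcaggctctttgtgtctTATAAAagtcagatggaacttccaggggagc
Ccl9, chr11:83578637-83578716, minus strand: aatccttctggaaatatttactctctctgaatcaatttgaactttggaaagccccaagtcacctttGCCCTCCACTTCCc
Ccl6, chr11:83593088-83593167, minus strand: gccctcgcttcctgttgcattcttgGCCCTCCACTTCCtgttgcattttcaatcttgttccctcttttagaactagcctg

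The shared run began 55 bases before the start of Ccl6 and 14 bases before that of Ccl9. Of the other pairs of members, none shared a run of over 9 bases. An NF-κB-type string (GGGA, any base, then TTTCC), searched on both strands of the 250 bases before the RefSeq start, was in 1 of the 7 members (Cxcl1, 71 to 62 bases before the RefSeq start, which lies 4 bases inside the deposited gene). It was in 0.356% of 32851 RefSeq promoters of the same length. TATAAA, searched in the same way, was in 3 of 7 (Ccl12, Ccl9 and Cx3cl1) and in 12.4% of all promoters. In Ccl12 it lay 31 to 26 bases before the start. In Cx3cl1 it lay 6 to 1 bases before the RefSeq start, which is 171 bases inside the deposited gene, so it is not in the bases before the deposited start. In Ccl9 a plus-strand match overlapped a minus-strand one. These matches describe the letters of the windows and show no binding.

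Total counts per library ran from 14203041 to 22688664. Values are in TMM-scaled CPM, so that libraries of unequal depth can be set side by side. The 10 ventricular cardiomyocyte markers, such as Myh6, Tnnt2 and Myl2, were abundant and summed to 56355 to 68673 CPM in isoproterenol-minocycline libraries, 58038 to 63538 CPM in isoproterenol libraries and 68444 to 76775 CPM in control libraries. Libraries 4 and 6 of isoproterenol with minocycline stood apart, with 1820 and 1655 CPM summed over 12 endothelial markers against 1157 to 1479 CPM in the other 16. Isoproterenol-minocycline library 3 had 2260 CPM summed over the erythroid markers, against 423 to 1235 CPM in the other 17. In 4 libraries the atrial light chain gene Myl7 exceeded 80 CPM: isoproterenol-minocycline 2 (206 CPM), isoproterenol 5 (96.3 CPM), control 5 (134 CPM) and control 6 (85.6 CPM). Isoproterenol-minocycline 4 fell below this limit (69.6 CPM). Summed over 4 atrial markers it had 396 CPM, against 386 CPM in isoproterenol 5 and 378 CPM in control 6. Test results of the members that depend on the libraries set apart here are also given without them, while r values between genes are not. In these bulk samples, fewer cells of a type and less RNA per cell cannot be told apart.

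Per transcript length, Cxcl12 was the leading chemokine of the list in each group. In the authors' TPM values, which are scaled for transcript length and library total, it averaged 44.7 ± 10.8 TPM with isoproterenol and minocycline, 36.1 ± 6.59 with isoproterenol and 25.6 ± 3.83 in control (SD, n = 6 each). It made up 42.1%, 39.1% and 45.0% of the members' summed TPM in those groups. Ccl6 and Cxcl14 came next, at 17.9 ± 3.41 and 10.5 ± 2.33 TPM with both drugs, 12.9 ± 2.00 and 12.0 ± 1.92 TPM with isoproterenol, and 8.16 ± 2.28 and 9.12 ± 1.78 TPM in control. The ranges of these 2 overlapped in every group, so their order is not settled, while Cxcl12 stood clear of the next gene in every group. Ccl9 held rank 4 in all groups (6.72, 6.50 and 3.24 TPM), and its range overlapped that of the gene below it each time. From Ccl9 downward all neighbours overlapped, except Cxcl1 and Ccl24 with both drugs (4.06 ± 0.953 and 1.33 ± 0.252 TPM). Ccl24 was lowest throughout, at 1.33, 1.39 and 1.21 TPM with both drugs, isoproterenol and saline. TPM values carry no TMM scaling, and in CPM the Ccl24 means were 1.11, 1.12 and 1.09. TPM means of different groups are therefore not to be read as fold changes, which are taken from the counts below. Ccl12 held rank 6 with both drugs (5.52 TPM), rank 5 with isoproterenol (6.17 TPM) and rank 8 in control (1.61 TPM), within overlapping ranges.

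**Figure D1:**
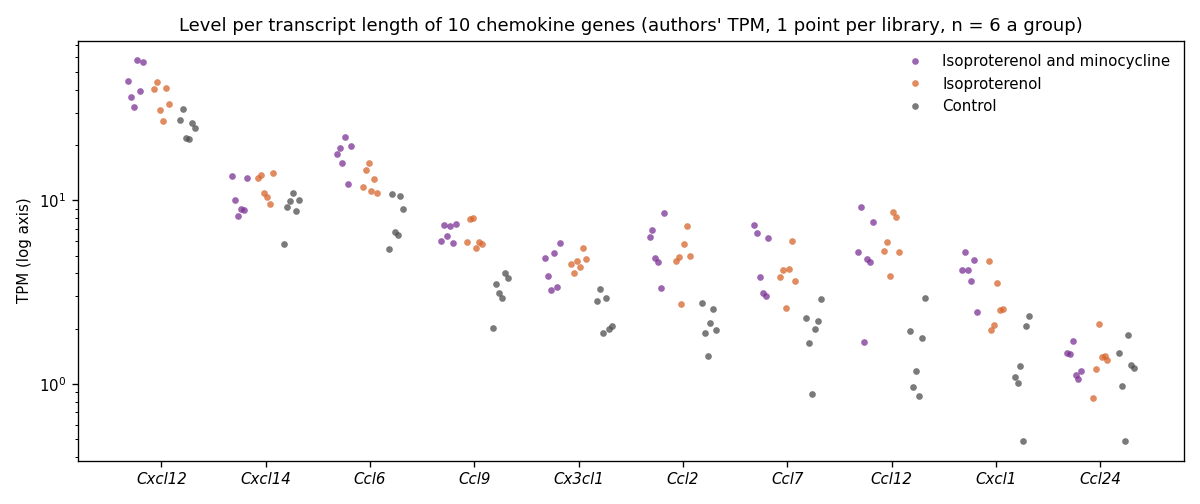
Level of each chemokine gene per transcript length in the authors' TPM (log axis), 1 point per library, 6 libraries a group, genes ordered by their control mean. Cxcl12 lies above all other genes in every group (means 44.7, 36.1 and 25.6 TPM), and Ccl24 has the lowest mean in every group.

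Isoproterenol raised 6 of the 10 chemokine genes over control: Ccl12, Ccl2, Cxcl1, Ccl7, Ccl9 and Cx3cl1, by 1.62-fold to 3.43-fold. None was called lower, and Ccl6, Cxcl12, Cxcl14 and Ccl24 did not pass the threshold. A call is a Benjamini-Hochberg adjusted p under 0.05 over all 13281 genes in edgeR's quasi-likelihood test. Of all genes, 6.94% were called higher, 5.62% lower and 12.6% in either direction in the same comparison. The members' median log2 fold change was 0.77, beside 0.00 over all genes tested, and all 10 values were above 0. The 10 members were chosen with earlier results of these data known. Here and in the comparisons below, the values over all genes therefore give scale and test nothing about the list. In 3 members every isoproterenol library lay above every control library (Ccl12, Ccl9 and Cx3cl1), as it did in 3.66% of all genes.

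With isoproterenol and minocycline, 8 of the 10 rose over control: the same 6, and also Ccl6 and Cxcl12. Again none was called lower, and Cxcl14 and Ccl24 missed the threshold. Of all genes, 10.2% were called higher, 9.05% lower and 19.3% in either direction here. The members' median log2 fold change was 0.98, beside 0.00 over all genes. The groups did not overlap in 5 members (Ccl2, Ccl6, Ccl9, Cxcl1 and Cxcl12), against 3.55% of all genes. Both comparisons use the same 6 control libraries and are therefore not independent.

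Set directly against isoproterenol alone, added minocycline changed none of the 10 at the threshold. By edgeR, DESeq2 and limma-voom alike the count was 0, and edgeR called 0.00753% of all genes higher, 0.0452% lower and 0.0527% in either direction. At an unadjusted p under 0.05, 3 members were higher (Ccl6, Cxcl12 and Cxcl1), against 3.88% of all genes, and none lower. The median log2 fold change of the members was 0.19, with 6 of 10 above 0, beside 0.00 over all genes. No member had groups that did not overlap in this comparison, where 0.188% of all genes had every isoproterenol-minocycline library above every isoproterenol library.

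**Figure D2:**
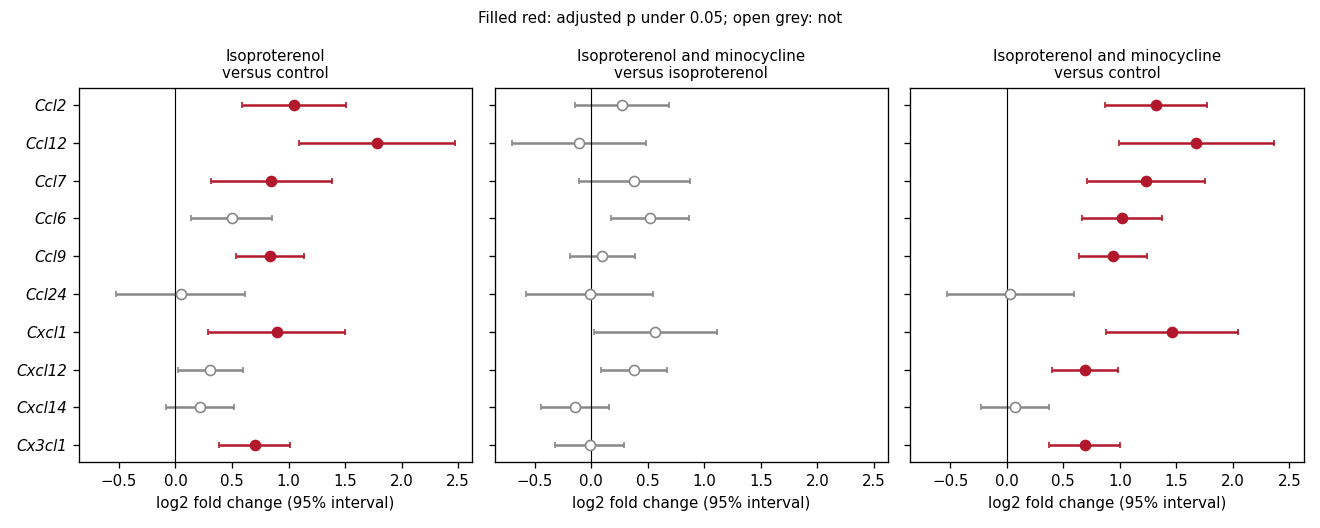
Log2 fold change of each chemokine gene in the 3 comparisons, with 95% intervals from edgeR's quasi-likelihood fit of 18 libraries; filled red points have an adjusted p under 0.05. The panels hold 6, 0 and 8 filled points, all to the right of 0.

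Ccl2, Ccl12 and Ccl7 encode monocyte chemoattractants that bind CCR2, and in mice Ccl12 is a close relative of Ccl2. Ccl2 had a lowest, median and highest value of 2.36, 4.19 and 6.06 CPM with isoproterenol and minocycline, 2.09, 3.49 and 4.51 CPM with isoproterenol, and 1.16, 1.61 and 2.21 CPM in control. Every library given both drugs exceeded all controls, and 5 of the 6 isoproterenol libraries did. Isoproterenol raised Ccl2 by 1.05 ± 0.22 on the log2 scale (SE), or 2.06-fold (edgeR, adjusted p = 0.00344). With both drugs the log2 fold change over control was 1.32 ± 0.22, or 2.498-fold (adjusted p = 2.34e-04). Between the drug groups Ccl2 differed by 0.27, with a 95% interval of -0.14 to 0.69, and the adjusted p was 0.761.

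Ccl12 had the largest rise of the list under isoproterenol. Its lowest, median and highest values were 0.640, 1.74 and 2.98 CPM with both drugs, 1.39, 1.86 and 2.97 CPM with isoproterenol, and 0.332, 0.564 and 1.04 CPM in control. The isoproterenol and control libraries did not overlap, whereas library 3 of isoproterenol with minocycline, the one rich in erythroid markers, lay within the control range. The log2 fold changes over control were 1.68 ± 0.33 with both drugs (edgeR, adjusted p = 0.00136) and 1.78 ± 0.33 with isoproterenol (adjusted p = 0.00123). These correspond to 3.20-fold and 3.43-fold. Ccl12 rested on few reads, 512 counts over the 18 libraries, and the interval for both drugs against isoproterenol was wide, from -0.70 to 0.49 on the log2 scale. Without library 3 the value for both drugs was 1.86 over control and 0.08 over isoproterenol, where it was -0.10 with that library.

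Ccl7 followed with smaller changes. It ran from 1.496 CPM (median 2.65) to 3.62 CPM with both drugs, from 1.39 CPM (median 1.94) to 2.63 CPM with isoproterenol, and from 0.504 CPM (median 1.20) to 1.52 CPM in control. In each drug group 5 of 6 libraries exceeded all controls. It rose 2.35-fold with both drugs (log2 fold change 1.23 ± 0.25, edgeR adjusted p = 0.00176) and 1.80-fold with isoproterenol (0.85 ± 0.26, adjusted p = 0.0343). The isoproterenol call was lost when any one of isoproterenol libraries 2, 4 and 5 or control libraries 2, 3 and 4 was left out, with adjusted p up to 0.0819 and log2 fold changes of 0.70 to 0.86. Without the 4 Myl7-rich libraries it was lost as well (adjusted p = 0.0832), at a log2 fold change of 0.96. Ccl11, the eotaxin gene that lies between Ccl7 and Ccl12, averaged 2.15 ± 0.724 CPM with both drugs, 1.78 ± 0.328 CPM with isoproterenol and 2.26 ± 0.716 CPM in control, and it was called in no comparison. Its log2 fold change was -0.34 for isoproterenol (edgeR, adjusted p = 0.379). Ccl8, another CC ligand gene outside the list, went the other way, at 1.02 for isoproterenol (edgeR, adjusted p = 0.0715). It averaged 1.75 ± 0.714 CPM with both drugs, 1.79 ± 0.529 CPM with isoproterenol and 0.870 ± 0.657 CPM in control, and was called in no comparison.

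**Figure D3:**
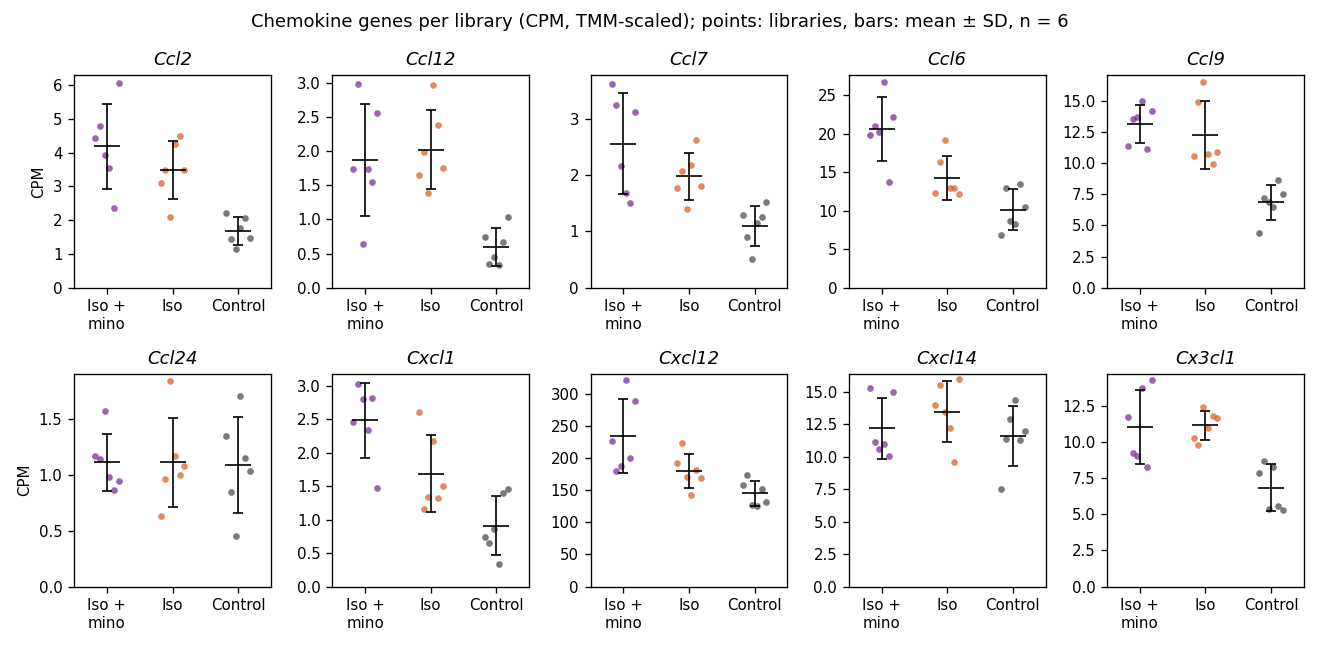
TMM-scaled CPM of each chemokine gene in the 18 libraries, with the group mean and SD (n = 6 each); groups from left to right are isoproterenol with minocycline, isoproterenol and control. Ccl9, Ccl12 and Cx3cl1 separate isoproterenol from control libraries, and Ccl24 has near-equal means in all groups (1.11, 1.12 and 1.09 CPM).

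Ccl6 and Ccl9, rodent CC chemokines made largely by myeloid cells and ligands of CCR1, are neighbours on chromosome 11. Ccl9 spanned 11.2 to 14.9 CPM (median 13.6) with both drugs, 9.89 to 16.5 CPM (median 10.8) with isoproterenol and 4.37 to 8.66 CPM (median 7.01) in control. All 12 drug-treated libraries lay above all 6 controls. The rise over control was 1.92-fold with both drugs (log2 fold change 0.94 ± 0.14, edgeR adjusted p = 1.33e-04) and 1.79-fold with isoproterenol (0.84 ± 0.15, adjusted p = 6.98e-04). The 2 drug groups differed by 0.10 on the log2 scale (95% interval -0.19 to 0.39).

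Ccl6 differed from its neighbour in how the groups were spaced. It ran from 13.8 to 26.7 CPM (median 20.6) with both drugs, from 12.2 to 19.2 CPM (median 12.9) with isoproterenol and from 6.89 to 13.5 CPM (median 9.60) in control. Of the libraries given both drugs, 5 exceeded every isoproterenol library, and isoproterenol libraries overlapped the controls. With both drugs Ccl6 rose 2.02-fold over control (log2 fold change 1.02 ± 0.17, edgeR adjusted p = 4.05e-04). Isoproterenol alone gave 0.50 ± 0.17 (adjusted p = 0.0641). That difference passed the threshold by DESeq2 (0.0336), once the mean of 3 atrial markers was a covariate (0.00713), and without isoproterenol-minocycline library 5 (0.0411), control library 2 (0.0384) or control library 5 (0.0337). Added minocycline gave 0.52 ± 0.17 with a 95% interval of 0.17 to 0.87, an unadjusted p of 0.00545 and an adjusted p of 0.465. The highest Ccl6 values, 26.7 and 22.2 CPM, were those of isoproterenol-minocycline libraries 4 and 6, the pair with the highest endothelial markers. Without this pair Ccl6 was still called for both drugs over control. Over the 29 alternative fits the value for added minocycline ran from 0.38 to 0.62 and was never called.

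Ccl24, which encodes a ligand of the eosinophil receptor CCR3, showed no change that these libraries could resolve. Its lowest, median and highest values were 0.863, 1.06 and 1.57 CPM with both drugs, 0.634, 1.04 and 1.84 CPM with isoproterenol, and 0.454, 1.10 and 1.71 CPM in control. The 3 groups overlapped throughout. The 95% interval of the log2 fold change for isoproterenol over control was -0.52 to 0.61. Of the 8 eosinophil markers none reached the filter, and Siglecf, Epx, Ear1 and Ear6 had no count in any library. Over the 18 libraries Ear2 had 123 counts, Prg2 4, Il5ra 3 and Ccr3 1.

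Cxcl1, a ligand of the neutrophil receptor CXCR2, was among the rarest members. With both drugs it ran from 1.47 to 3.03 CPM (median 2.63), with isoproterenol from 1.16 to 2.60 CPM (median 1.42) and in control from 0.332 to 1.46 CPM (median 0.798). Every library given both drugs lay above all controls, the lowest of them by little, while 3 of 6 isoproterenol libraries did. Cxcl1 rose 2.75-fold with both drugs (log2 fold change 1.46 ± 0.28, edgeR adjusted p = 0.00109) and 1.86-fold with isoproterenol (0.89 ± 0.29, adjusted p = 0.0487). The isoproterenol call was at the edge of the threshold: it held when isoproterenol 2, isoproterenol-minocycline 6, control 5 or control 6 was left out, and was lost when any of the other 14 libraries was, with adjusted p between 0.0501 and 0.113 and log2 fold changes of 0.71 to 0.95. Testing every counted gene (adjusted p = 0.0534) or fitting just the control and isoproterenol libraries (0.0554) also ended the call. Added minocycline gave 0.57 with a 95% interval of 0.02 to 1.11 (unadjusted p = 0.0420, adjusted p = 0.633).

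Cxcl12, the ligand of CXCR4 and of the scavenging receptor ACKR3, spanned 181 to 322 CPM (median 214) with both drugs, 143 to 223 CPM (median 176) with isoproterenol and 126 to 174 CPM (median 142) in control. The highest values, 322 and 289 CPM, were those of isoproterenol-minocycline libraries 4 and 6, the pair with the highest endothelial markers. All libraries given both drugs exceeded all controls. Cxcl12 rose 1.62-fold with both drugs (log2 fold change 0.69 ± 0.14, edgeR adjusted p = 0.00205). In isoproterenol libraries the difference was 0.31 ± 0.14 (adjusted p = 0.153), and against isoproterenol the added minocycline gave 0.38 (95% interval 0.09 to 0.67, unadjusted p = 0.0128, adjusted p = 0.524). Without libraries 4 and 6, a choice made after seeing the data, these values were 0.45 for both drugs over control (adjusted p = 0.0122), 0.31 for isoproterenol over control (0.0411) and 0.15 for added minocycline.

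Cxcl14, an epithelial and stromal chemokine whose receptor is not agreed on, held rank 2 or 3 in TPM but was called in no comparison. It had lowest, median and highest values of 10.1, 11.04 and 15.3 CPM with both drugs, 9.58, 13.7 and 15.97 CPM with isoproterenol, and 7.51, 11.6 and 14.4 CPM in control. All groups overlapped. The log2 fold changes over control were 0.07 (95% interval -0.23 to 0.37) with both drugs and 0.22 (-0.09 to 0.52) with isoproterenol.

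Cx3cl1 encodes fractalkine, a membrane-bound chemokine of vessel walls that binds CX3CR1. It ran from 8.28 to 14.3 CPM (median 10.5) with both drugs, from 9.76 to 12.4 CPM (median 11.3) with isoproterenol and from 5.30 to 8.70 CPM (median 6.70) in control. No isoproterenol library overlapped the controls, and with both drugs 1 of 6 did. Its rise was 1.61-fold with both drugs (log2 fold change 0.69 ± 0.15, edgeR adjusted p = 0.00324) and 1.62-fold with isoproterenol (0.70 ± 0.15, adjusted p = 0.00434). The drug groups differed by -0.01 on the log2 scale (95% interval -0.32 to 0.29). Without the 4 Myl7-rich libraries the isoproterenol value was 0.55 and its adjusted p 0.0765. Without isoproterenol-minocycline libraries 4 and 6, where Cx3cl1 was highest (13.7 and 14.3 CPM), the value for both drugs over control was 0.48 (adjusted p = 0.0326).

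Most conventional chemokine receptor genes had few counts, though of the members' receptors named below just Cxcr2 and Ccr3 missed the filter. Of 18 conventional chemokine receptor genes, 5 passed the filter, of which 2 were higher with isoproterenol (Ccr1 and Ccr2), 1 with both drugs (Ccr1) and none differed between the drug groups. The list's median log2 fold change was 0.42 with both drugs and 0.25 with isoproterenol, beside 0.00 over all genes in each. The share of all genes called higher over control was 10.2% with both drugs and 6.94% with isoproterenol. Ccr1, the receptor for Ccl6 and Ccl9, ran from 1.38 to 3.38 CPM (median 2.53) with both drugs, 1.63 to 2.64 CPM (median 2.30) with isoproterenol and 0.792 to 1.66 CPM (median 0.991) in control. In each drug group all 6 libraries were above the control mean. Its log2 fold changes over control were 1.06 ± 0.22 with both drugs (edgeR, adjusted p = 0.00185) and 0.96 ± 0.22 with isoproterenol (adjusted p = 0.00621).

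Ccr2, the monocyte receptor for Ccl2, Ccl7 and Ccl12, was spaced differently. It averaged 2.54 ± 0.421 CPM with both drugs, 3.49 ± 0.804 CPM with isoproterenol and 1.88 ± 0.624 CPM in control (SD, n = 6 each). Isoproterenol raised it by 0.87 ± 0.21 on the log2 scale (edgeR, adjusted p = 0.00836). With both drugs the value over control was 0.42 ± 0.21 (adjusted p = 0.174). All 6 libraries given both drugs lay below the isoproterenol mean, with a log2 difference of -0.46 (95% interval -0.88 to -0.04), an unadjusted p of 0.0342 and an adjusted p of 0.607.

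Cxcr4, Ackr3 and Cx3cr1 were called in no comparison. Cxcr4 averaged 2.96 ± 0.517 CPM with both drugs, 2.98 ± 0.853 CPM with isoproterenol and 3.13 ± 0.847 CPM in control. Ackr3 averaged 76.3 ± 4.53, 79.5 ± 11.5 and 76.4 ± 18.4 CPM in those groups. Cx3cr1 averaged 1.34 ± 0.553, 1.85 ± 0.335 and 1.98 ± 0.588 CPM, and with both drugs its log2 fold change over control was -0.55 (95% interval -1.07 to -0.02, edgeR adjusted p = 0.135). Cxcr2 had 20 counts and Ccr3 1 count over the 18 libraries. Of the 4 atypical receptors tested, Ackr2, a decoy that removes inflammatory CC chemokines, rose in both drug groups: it averaged 3.05 ± 0.850 CPM with both drugs, 2.59 ± 0.522 CPM with isoproterenol and 1.38 ± 0.507 CPM in control. Its log2 fold changes over control were 1.13 ± 0.23 (edgeR, adjusted p = 0.00163) with both drugs and 0.90 ± 0.23 (adjusted p = 0.0144) with isoproterenol.

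**Figure D4:**
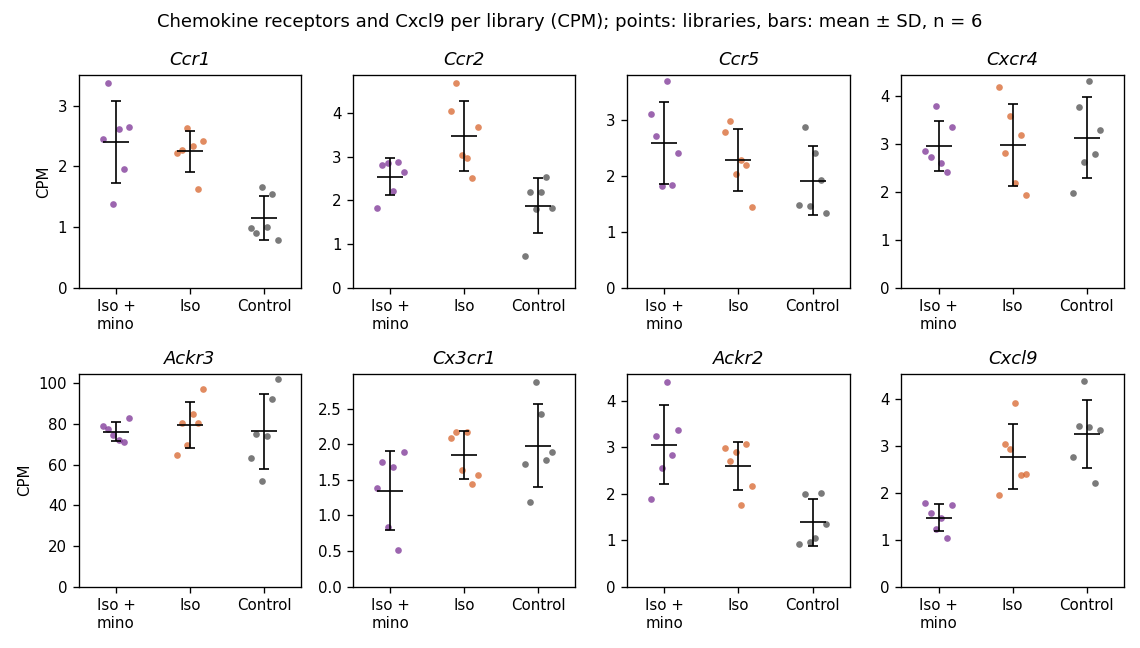
TMM-scaled CPM of chemokine receptor genes and of Cxcl9 in the 18 libraries, with the group mean and SD (n = 6 each); groups from left to right are isoproterenol with minocycline, isoproterenol and control. Ccr2 has its highest mean with isoproterenol alone (3.49 CPM), and the Cxcl9 libraries given both drugs (1.04 to 1.79 CPM) lie below all others.

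Among the remaining CC ligands 6 of 16 matched genes were tested. None was called with isoproterenol, and 1 was higher with both drugs over control, Ccl25, whose exons overlap those of the far more abundant Elavl1 and whose value is therefore uncertain. The list's median log2 fold change over control was 0.54 with both drugs and 0.38 with isoproterenol, beside 0.00 over all genes in each. Of all genes, 10.2% were called higher and 9.05% lower with both drugs, and 6.94% and 5.62% with isoproterenol. With 6 genes tested, the counts of this list are not clearly apart from those shares. Of the other CXC and XC ligands 4 of 13 were tested. Pf4 averaged 13.8 ± 2.82 CPM with both drugs, 13.5 ± 1.51 CPM with isoproterenol and 7.25 ± 0.599 CPM in control. No drug-treated library overlapped the controls, and the log2 fold changes were 0.94 ± 0.12 with both drugs (edgeR, adjusted p = 1.33e-05) and 0.89 ± 0.12 with isoproterenol (adjusted p = 2.98e-05). Cxcl16 was also called with isoproterenol (0.50 ± 0.15, adjusted p = 0.0377), but its exons overlap those of Zmynd15. Ppbp was called in no comparison, with a log2 fold change of -0.73 for isoproterenol over control (edgeR, adjusted p = 0.279).

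Cxcl9, an interferon-γ-induced ligand of CXCR3 on T cells, was the one tested chemokine gene called lower. It ran from 1.04 to 1.79 CPM (median 1.52) with both drugs, from 1.97 to 3.93 CPM (median 2.67) with isoproterenol and from 2.21 to 4.39 CPM (median 3.38) in control. The libraries given both drugs overlapped neither of the other groups. Cxcl9 fell with both drugs relative to control, with a log2 fold change of -1.14 ± 0.19 (edgeR, adjusted p = 2.83e-04). Against isoproterenol the value was -0.91 ± 0.19 with an adjusted p of 0.0878, and isoproterenol against control gave -0.22 (adjusted p = 0.446).

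Genes that act on chemokines were counted by list, beside 10.2% of all genes called higher over control with both drugs and 6.94% with isoproterenol. Of the 7 tested proteases that cut or shed chemokines, 4 rose over control in both drug groups (Mmp12, Ctsk, Mmp14 and Mmp2), and none differed between the drug groups. Mmp12, the macrophage elastase, averaged 2.69 ± 0.591 CPM with both drugs, 2.23 ± 0.415 CPM with isoproterenol and 0.414 ± 0.125 CPM in control. Its log2 fold changes over control were 2.67 ± 0.22 with both drugs (edgeR, adjusted p = 5.68e-08) and 2.40 ± 0.22 with isoproterenol (adjusted p = 3.85e-07). Adam10 and Adam17, which release CX3CL1 from the cell surface, were not called. The list's median log2 fold change was 0.55 with both drugs and 0.60 with isoproterenol.

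A list of 30 genes of the NF-κB, STAT and cytokine pathways upstream of chemokines holds activators as well as inhibitors such as Nfkbia, Tnfaip3 and Socs3. Of these 30, 26 were tested, and 6 rose and 1 fell (Irak1, a kinase of the interleukin-1 receptor) in each drug group relative to control. The 6 were not all the same genes: Relb was among them with isoproterenol and Myd88 with both drugs. The exons of Myd88 overlap those of the more abundant Acaa1a, so its value is uncertain. Over all genes, 10.2% rose and 9.05% fell with both drugs, and 6.94% and 5.62% with isoproterenol. Socs3, a feedback inhibitor of cytokine signalling, averaged 7.70 ± 1.88 CPM with both drugs, 7.11 ± 1.64 CPM with isoproterenol and 3.36 ± 0.436 CPM in control. That was a log2 fold change of 1.21 ± 0.17 with both drugs (edgeR, adjusted p = 3.82e-05) and 1.09 ± 0.17 with isoproterenol (adjusted p = 1.96e-04). Stat3, a transcription factor of interleukin-6 signalling, rose by 0.41 with both drugs and by 0.43 with isoproterenol on the log2 scale (edgeR, adjusted p = 0.00164 and 0.00156). Il1b, Il6 and Tnf, the classical inducers, had 143, 46 and 94 counts over the 18 libraries and were not tested. The list's median was 0.23 with both drugs and 0.20 with isoproterenol.

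Markers of several cell types that make chemokines also differed from control, and their part in the members' changes was not tested. Over control, 10.2% of all genes were called higher and 9.05% lower with both drugs. With isoproterenol these shares were 6.94% and 5.62%. Of 23 tested monocyte and macrophage markers, 15 were higher with both drugs and 10 with isoproterenol over control. Their summed level ran from 377 to 609 CPM with both drugs, 387 to 533 CPM with isoproterenol and 282 to 359 CPM in control. Fibroblast markers were higher in 12 and 8 of 15, with sums of 2303 to 3877, 2389 to 3275 and 1712 to 2351 CPM. Mast cell markers were higher in 4 and 3 of 6, and 1 (Kit) was lower with both drugs. Smooth muscle and pericyte markers were higher in 5 and 4 of 11. Endothelial markers were higher in 2 and 0 of 12, counts not clearly apart from the shares over all genes. Their sums were 1267 to 1820, 1249 to 1479 and 1157 to 1362 CPM. Of the ventricular cardiomyocyte markers 5 and 4 of 10 were lower. Of the 10 neutrophil markers 3 were tested and none was called, while Ly6g and Ngp had no count in any library. The tested ones differed in direction. S100a9 had a log2 fold change of 1.48 for isoproterenol over control and -1.56 for added minocycline (edgeR, adjusted p = 0.0857 and 0.524). In the same comparisons Csf3r had 0.46 and -0.39, and Lcn2 had -0.41 and 0.99. The tested markers of atrial cardiomyocytes, adipocytes and erythroid cells were called in no comparison. Of the 15 markers of T, B and NK cells just 1 was tested (Cd4), and it was not called. Their sums averaged 2.21 ± 0.410 CPM with both drugs, 3.17 ± 0.411 CPM with isoproterenol and 2.24 ± 0.382 CPM in control. No list of cell type markers had a called member between the drug groups.

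Within groups the members did not vary as one set. After centring log2-CPM on each group's mean, the 45 pairs of members had a median Pearson r of 0.04 over the 18 libraries, and 18 pairs were below 0. This r is a description of libraries that share depth and tissue composition. The highest values belonged to neighbours on chromosome 11, Ccl6 with Ccl9 (0.86) and Ccl2 with Ccl7 (0.79). Cxcl12 with Cx3cl1 and Ccl12 with Ccl7 both reached 0.54, and no other pair exceeded 0.5. Cxcl12 and Cx3cl1 were both highest in isoproterenol-minocycline libraries 4 and 6, and their r was not taken without these libraries. The lowest was Cxcl1 with Cx3cl1 (-0.68).

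**Figure D5:**
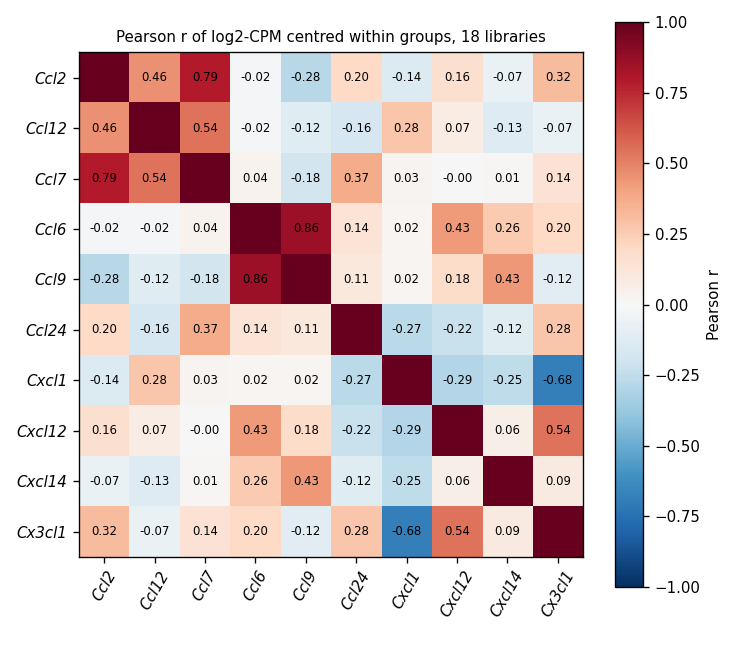
Pearson r between the members over 18 libraries, from log2-CPM values centred within each group (colour scale from -1 to 1). The Ccl6 and Ccl9 pair (0.86) and the Ccl2 and Ccl7 pair (0.79) stand out, and Cxcl1 with Cx3cl1 is lowest (-0.68).

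The same measure was taken against 11644 other genes of at least 1 CPM on average. The genes named are the highest of that search, and a search this wide over 18 libraries gives high r values by chance. No p-value was computed. Ccl2 was most like Pkhd1l1 (r = 0.82), Cadm1 (0.80) and Icam1, an adhesion molecule for leukocytes (0.78). Ccl6 and Ccl9 had the same nearest gene, Slc43a3, at 0.90 and 0.82, and Ccl6 was next to Pros1, the anticoagulant protein S (0.88). Cxcl12 was nearest to Il17rd (0.93), Cpsf7 (0.90) and Mmrn2, an endothelial matrix protein (0.88). These values include isoproterenol-minocycline libraries 4 and 6, where Cxcl12 and the endothelial markers were highest, and were not taken without them. Cx3cl1 was nearest to Tbx2 and a protocadherin gene listed as Pcdhga8_1 (both 0.85). Cxcl14 was nearest to Skida1 (0.84) and Cxcl1 to Calu (0.81). The nearest genes of Ccl24 (Commd2, 0.79), Ccl7 (Pprc1, 0.75) and Ccl12 (Fam78b, 0.73) had the lowest values, and these 3 members are among those with few counts.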

How the data were processed

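Polyadenylated RNA was sequenced as 150-base read pairs on an Illumina NovaSeq. Trimming and RNA-seq analysis were done by the authors in CLC Genomics Workbench 21.0.3, per the labels' protocols. What edgeR, named in the submitters' processing notes, was used for is not stated there. For build, annotation and strand setting no source used here gives a value. The authors deposited counts per gene and library, used for all tests, and TPM values, used for levels between genes. Columns were matched to libraries by the number in the description field, which differs from that in every title. The number of per-sample columns matched to no library was 0.

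Of the deposited gene identifiers, 88.4% have identical positions in GENCODE release 21 for mouse (M21, GRCm38). The filterByExpr step kept 99.93 to 99.95% of each library's counts. The test was that of edgeR 4.0.16 under R 4.3.3 (TMM, glmQLFit with robust estimation, glmQLFTest) in 1 fit of 18 libraries, 2-sided, with Benjamini-Hochberg adjustment over 13281 genes. The biological coefficient of variation was 13.2%. In simulated counts for isoproterenol versus control over 13281 genes, 72 of 100 genes changed 1.5-fold and 86 of 100 changed 2-fold were recovered, with 9 false calls. The changed genes were drawn from all genes tested, and each gene was simulated independently, without shared shifts in tissue composition between libraries. These rates therefore do not give the recovery of members with few counts or the false calls in the real libraries. Libraries of a group differed beyond sampling noise (chi-square per degree of freedom 5.30 to 33.3). Log2-CPM carries a prior count of 2.

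The members and lists were chosen with earlier results of these data known. All members were reported. From each ligand, receptor, protease and inducer list up to 4 called genes with the smallest p could be named, as could Ccr2, Ccr1, Ccr3, Cxcr2, Cxcr4, Ackr3 and Cx3cr1. Ccl11, Ccl25, Cxcl16, Ppbp, Adam10, Adam17, Il1b, Il6, Tnf and Irak1 were named after their values were seen, for position, overlap, contrast or background. So were Ccl8, Relb and Myd88. Likeness names up to 3 genes per member by Pearson r. Alternatives included DESeq2 1.42.0 and limma 3.58.1 (voom).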

Additional observations from a re-analysis of the deposited data

How the results depend on the processing

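Across 11 processing alternatives and 18 fits that each left out 1 library, no member's call reversed. The count of members called higher stayed between 4 and 7 for isoproterenol versus control in both kinds of alternative, was 8 in every one for both drugs versus control, and was 0 in every one for added minocycline. Ccl2, Ccl12 and Ccl9 were called in all 29 for isoproterenol versus control, and the changed calls of Ccl6, Ccl7, Cxcl1, Cxcl12 and Cx3cl1 stand beside their results. The lowest count, 4, came without the 4 Myl7-rich libraries and when isoproterenol library 4 or 5 or control library 3 or 4 alone was left out. DESeq2 gave 7. The counts over all genes moved more. For both drugs versus control, 1355 higher and 1202 lower genes became 754 and 687 without isoproterenol-minocycline libraries 4 and 6, and 756 and 613 without the Myl7-rich libraries. For isoproterenol versus control, 922 higher and 747 lower genes became 372 and 309 without the Myl7-rich libraries, and 580 were higher without control library 4. For added minocycline, 1 higher and 6 lower genes became 14 and 23 by DESeq2, 1 was lower in the fit of 12 libraries, 0 without the Myl7-rich libraries, 12 without libraries 4 and 6, and leaving out 1 library gave 1 to 2 higher and 0 to 11 lower. Leaving out libraries means fewer samples; the cause was not tested further. Low counts limit Ccl12, Ccl7, Cxcl1 and Ccl24 the most. No paired analysis was possible because the labels' library numbers are not shared between groups.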
